A study of Homo sapiens with 6 samples.

Results

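SLC7A5, SLC3A2, SLC7A11, SLC7A1, SLC1A4, SLC1A5, SLC38A1, SLC38A2, SLC6A9 and SLC43A1 code for plasma membrane carriers of amino acids or, for SLC3A2, a heavy chain. They are 10 of the 67140 gene identifiers in the table of the series. The genes were selected on earlier results of the same contrast, the difference between shAC007128.1 and shCtrl cells in these samples. Their values are therefore given as a description, without p-values, and although they were part of the fit over all genes, how many of them met its limits is a description too. Of the 10, 9 passed the filter on low counts and SLC43A1 did not.

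Cells cannot make the essential amino acids and take them up through carriers that differ in substrate, in coupling to sodium and in whether they exchange one amino acid for another. SLC3A2 is the heavy chain (4F2hc, also CD98) that brings several light chains of the SLC7 family to the cell surface, among them SLC7A5 (LAT1), which exchanges large neutral amino acids such as leucine, and SLC7A11 (xCT), which exports glutamate for cystine. Sodium-coupled carriers of the SLC1 and SLC38 families supply glutamine, alanine and serine, part of which leaves again through the exchangers. Many tumours of squamous epithelium hold high levels of LAT1 and of its heavy chain.

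KYSE150, an established line of human esophageal squamous cell carcinoma (ESCC), was studied by RNA sequencing of bulk cultures to compare cells in which the long non-coding RNA AC007128.1 was targeted with control cells. The shCtrl group comprised 3 samples transfected with a control short hairpin RNA, and the shAC007128.1 group 3 samples transfected with a hairpin against AC007128.1, all in RPMI medium with fetal bovine serum. Separate cultures are not stated, so p-values measure the spread between these samples, which may be technical. The libraries of shCtrl replicates 1, 2 and 3 held 72354339, 78610457 and 65140326 counts in total, and those of shAC007128.1 replicates 1, 2 and 3 held 57880388, 55764405 and 60158244, so every shCtrl library was the deeper.

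Levels are CPM, scaled by edgeR's TMM factors. A count of 3, taken as the smallest detectable level, equals 0.0373 to 0.0546 CPM across the samples and covers counting error only. A call needed a p from edgeR's quasi-likelihood test that was no larger than 0.05 after Benjamini-Hochberg adjustment, together with a log2 fold change of 1 or more in size. Positions are from GENCODE v44 on hg38.

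AC007128.1 (ENSG00000229970) was counted 69, 33 and 53 times in shCtrl replicates 1, 2 and 3, and 18, 37 and 15 times in shAC007128.1 replicates 1, 2 and 3. The groups overlapped, since shAC007128.1 replicate 2 lay above shCtrl replicate 2. Scaled levels were 0.712 ± 0.273 CPM for shCtrl against 0.417 ± 0.224 CPM for shAC007128.1 cells (SD, n = 3 each). The fit gave a log2 fold change of -0.77 (standard error 0.51), with an adjusted p of 0.271 from edgeR's quasi-likelihood test. A two-sided exact permutation test gave p = 0.200, where 0.1 is the smallest that 3 samples against 3 allow. A lower level of AC007128.1 was thus not called. Of its 1853 exon bases, 782 are shared with genes on the same strand and 118 with a gene on the opposite strand, so its count is uncertain. The authors report that their hairpin reduced AC007128.1, as measured by qPCR.

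Squamous markers were present in every sample. KRT5, the basal keratin, was at 585 ± 23.2 CPM (SD, n = 3) in shCtrl and 1070 ± 156 (SD, n = 3) in shAC007128.1 cells. The 9 squamous markers summed to 1530, 1512 and 1557 CPM in shCtrl and 2875, 2571 and 2145 CPM in shAC007128.1 replicates 1, 2 and 3. Of these, KRT14, KRT6A and SOX2 were called higher and DSG3 lower. The leukocyte marker PTPRC had at most 0.164 CPM in any sample. Leukocyte markers summed to 68.0, 65.9 and 59.1 CPM in shCtrl and 23.9, 14.5 and 16.6 CPM in shAC007128.1 samples, nearly all from CD68, a lysosomal protein gene that was called lower. Of the 2163 exon bases of CD68, 1765 are shared with a gene on the same strand, so its count is uncertain. The 6 fibroblast markers summed to 15.3 to 16.1 CPM in shCtrl and 20.9 to 23.9 CPM in shAC007128.1 samples, most of it COL1A1, with COL1A2 and COL3A1 at no more than 0.219 CPM in any sample of either group, LUM called higher and PDGFRB lower, the latter a call lost under 9 of the alternatives. The 3 endothelial markers summed to 2.12, 2.66 and 3.11 CPM in shCtrl and 0.302, 2.02 and 1.20 CPM in shAC007128.1 samples, with CDH5 at 0 in every shAC007128.1 sample. VWF, the most abundant of them, was at 2.18 ± 0.282 and 0.807 ± 0.738 CPM (SD, n = 3), not called by edgeR but called lower by DESeq2 (adjusted p = 0.0392) and limma-voom (adjusted p = 0.0280). Some of these markers thus differ between the groups and others were not called, and their part in the result was not tested.

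The plasma membrane transporters lay lower in shAC007128.1 cells, to differing degrees. SLC7A11 stood at 13.7% of its shCtrl level, SLC1A4, SLC3A2 and SLC7A5 at 26.3 to 28.0%, and SLC6A9 at 33.4%. SLC7A1, SLC38A1 and SLC1A5 stood at 52.0 to 58.1%, and SLC38A2 at 83.0%. Of the 9 genes tested, 5 met the limits for a call, all lower (SLC7A5, SLC3A2, SLC7A11, SLC1A4 and SLC6A9), and 0 were higher. Across all 19254 genes tested, 10.1% were called lower and 5.57% higher. For each of the 9, the highest shAC007128.1 sample was lower than the lowest shCtrl sample, which held for 28.2% of all genes tested. Nothing is read from these counts, since the same contrast chose the genes. In bulk RNA, fewer cells that express a gene and less of its RNA per cell cannot be told apart.

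**Figure D1:**
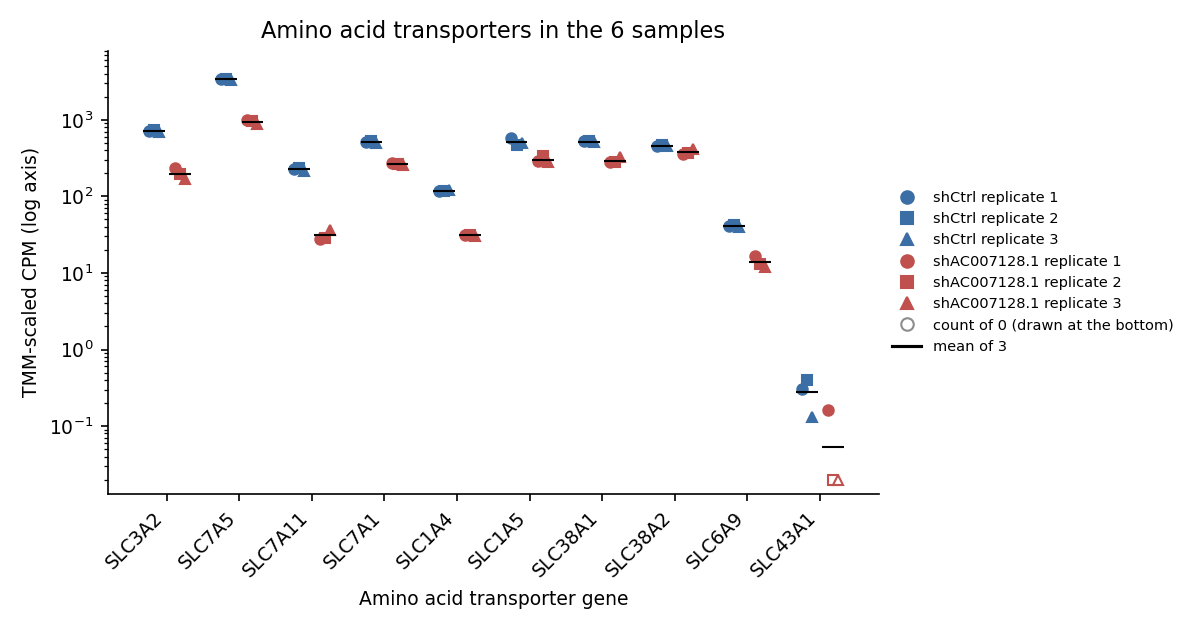
Level of each amino acid transporter gene (TMM-scaled CPM, log axis) in the 3 shCtrl samples (blue) and the 3 shAC007128.1 samples (red), with black lines for the mean of each group and open symbols for a count of 0. The groups are apart for 9 genes and overlap for SLC43A1, whose highest level is 0.398 CPM.

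SLC3A2 (ENSG00000168003, chromosome 11, 62856004 to 62888880, plus strand) codes for the heavy chain. It stood at 721, 733 and 696 CPM in shCtrl replicates 1, 2 and 3, and at 233, 194 and 170 CPM in shAC007128.1 replicates 1, 2 and 3. The shCtrl samples lay close together and far above the shAC007128.1 samples, of which replicate 3 was the lowest. The log2 fold change was -1.85 (standard error 0.12).

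SLC7A5 (ENSG00000103257, chromosome 16, 87830023 to 87869507, minus strand), the leucine exchanger, had 3442, 3430 and 3311 CPM in shCtrl replicates 1, 2 and 3. In shAC007128.1 replicates 1, 2 and 3 it had 993, 975 and 885 CPM. Each shAC007128.1 sample thus held less than a shCtrl sample by a similar step, and the groups were far apart. Its log2 fold change was -1.84 (standard error 0.06), next to that of its heavy chain. SLC7A5 was among the 20 genes with the most counts in the table. Its near-copies SLC7A5P1 and SLC7A5P2, with which reads could be shared, had mean levels of 2.52 and 4.16 CPM in shCtrl cells and 2.05 and 4.18 CPM in shAC007128.1 cells, and neither was called. All exon bases of these copies (538 and 536) are shared with other genes on the same strand, so the counts may not be their own.

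SLC7A11 (ENSG00000151012, chromosome 4, 138164097 to 138242349, minus strand) codes for the cystine and glutamate exchanger, whose cystine is reduced to cysteine for glutathione. Levels were 227, 236 and 217 CPM in shCtrl replicates 1, 2 and 3, and 28.1, 28.3 and 36.6 CPM in shAC007128.1 replicates 1, 2 and 3. All shAC007128.1 samples were low, with replicate 3 the highest of them, the reverse of its place for SLC3A2. The log2 fold change, -2.87 (standard error 0.12), was the largest in size of the 9 genes tested.

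The ratios to the heavy chain show how the light chains differed. Per kilobase of merged exons, SLC7A5 stood at 6.40, 6.28 and 6.38 times SLC3A2 in shCtrl replicates 1, 2 and 3, and at 5.71, 6.75 and 6.97 times in shAC007128.1 replicates 1, 2 and 3. The shAC007128.1 samples lay on both sides of the shCtrl samples, with means of 6.35 ± 0.0648 (SD, n = 3) in shCtrl and 6.48 ± 0.676 (SD, n = 3) in shAC007128.1 cells. The ratio of SLC7A11 to SLC3A2 was 0.208, 0.213 and 0.207 in shCtrl samples and 0.0799, 0.0968 and 0.142 in shAC007128.1 samples, so every shAC007128.1 sample was lower. SLC7A6 (y+LAT2), a light chain outside the 10 genes that exchanges cationic for neutral amino acids, had ratios of 0.0491, 0.0473 and 0.0498 in shCtrl samples and 0.184, 0.203 and 0.234 in shAC007128.1 samples. Its own level was 41.5 ± 0.482 CPM (SD, n = 3) in shCtrl and 48.4 ± 2.30 (SD, n = 3) in shAC007128.1 cells, with an edgeR adjusted p of 0.0560 at a log2 fold change of 0.22. The absolute ratios depend on the length used: with the longest transcript in place of merged exons, SLC7A5 was at 2.95 times SLC3A2 in shCtrl and 3.01 times in shAC007128.1 cells. Exons of SLC7A6 share bases with genes on the opposite strand, so its count is uncertain.

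**Figure D2:**
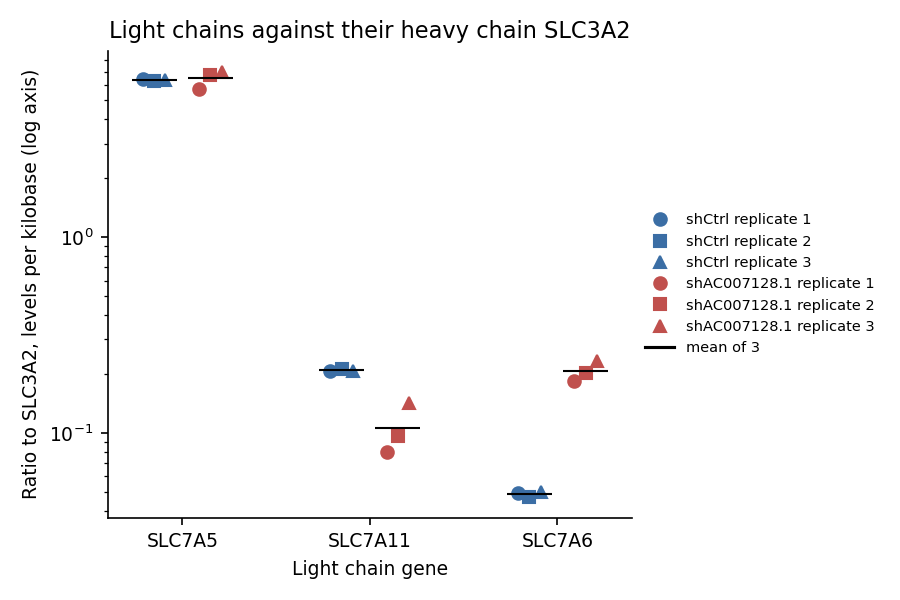
Ratio of each light chain gene to the heavy chain gene SLC3A2, from levels per kilobase (log axis), in the 3 shCtrl samples (blue) and the 3 shAC007128.1 samples (red), with black lines for group means. SLC7A5 keeps group means of 6.35 and 6.48, SLC7A11 lies lower and SLC7A6 higher in each shAC007128.1 sample.

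Among the 6 light chains of SLC3A2 in the annotation lists (SLC7A5, SLC7A6, SLC7A7, SLC7A8, SLC7A10 and SLC7A11), SLC7A5 made up 96.1, 96.0 and 96.1% of the summed level per kilobase in shCtrl replicates 1, 2 and 3 and 95.6, 95.7 and 94.8% in shAC007128.1 replicates 1, 2 and 3. It was by far the most abundant in every sample. The share of SLC7A11 was 3.17 ± 0.0800% (SD, n = 3) in shCtrl and 1.55 ± 0.335% (SD, n = 3) in shAC007128.1 cells. That of SLC7A6 was 0.737 ± 0.0136% (SD, n = 3) and 3.05 ± 0.152% (SD, n = 3), so SLC7A6 came after SLC7A11 in shCtrl cells and before it in shAC007128.1 cells. SLC7A10 had 0 counts in every sample.

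SLC7A1 (CAT1; ENSG00000139514, chromosome 13, 29509414 to 29595688, minus strand) imports arginine and lysine and needs no heavy chain. It stood at 514, 523 and 505 CPM in shCtrl replicates 1, 2 and 3, and at 277, 266 and 259 CPM in shAC007128.1 replicates 1, 2 and 3. Samples within a group were close and the groups were apart. The log2 fold change of -0.94 (standard error 0.06) lay just outside the limit for a call, the nearest of the uncalled genes, and with library size as the only scaling it was -1.02 and within the limit. Of the called genes SLC6A9 was nearest to the limit.

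The alanine, serine and cysteine carriers of the SLC1 family differed from each other. SLC1A4 (ASCT1; ENSG00000115902, chromosome 2, 64988477 to 65023865, plus strand) had 119, 117 and 120 CPM in shCtrl replicates 1, 2 and 3, and 31.3, 31.3 and 30.7 CPM in shAC007128.1 replicates 1, 2 and 3. The samples of each group were almost level, and the log2 fold change was -1.93 (standard error 0.07). SLC1A5 (ASCT2; ENSG00000105281, chromosome 19, 46774883 to 46788594, minus strand), a main glutamine exchanger, had 577, 469 and 498 CPM in shCtrl and 287, 333 and 278 CPM in shAC007128.1 replicates 1, 2 and 3. Its samples spread more widely, without overlap between groups, and the log2 fold change was -0.78 (standard error 0.10). Per kilobase, SLC1A5 stood at 10.1, 8.34 and 8.66 times SLC1A4 in shCtrl samples and at 19.1, 22.2 and 18.8 times in shAC007128.1 samples, so the ratio was higher in each shAC007128.1 sample. The absolute ratios depend on the length used. With the coding length, SLC1A5 and SLC1A4 were at 317 and 74.2 CPM per kilobase in shCtrl cells. In shAC007128.1 cells they were at 184 and 19.5.

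SLC38A1 (SNAT1; ENSG00000111371, chromosome 12, 46183063 to 46270017, minus strand) and SLC38A2 (SNAT2; ENSG00000134294, chromosome 12, 46358188 to 46372773, minus strand) load cells with glutamine and alanine together with sodium. They are neighbours, with 88170 bases between them. SLC38A1 had 522, 523 and 511 CPM in shCtrl replicates 1, 2 and 3, and 278, 278 and 326 CPM in shAC007128.1 replicates 1, 2 and 3. SLC38A2 had 453, 472 and 456 CPM in shCtrl and 357, 367 and 421 CPM in shAC007128.1 replicates 1, 2 and 3. For both genes shAC007128.1 replicate 3 lay nearest to the shCtrl samples. The log2 fold changes were -0.82 (standard error 0.08) for SLC38A1 and -0.27 (standard error 0.08) for SLC38A2, the smallest in size of the 9 genes.

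SLC38A5 (SNAT5), a relative outside the 10 genes that also carries glutamine, stood at 97.5 ± 8.90 CPM (SD, n = 3) in shCtrl and 96.9 ± 7.62 (SD, n = 3) in shAC007128.1 cells, and the groups overlapped. Its log2 fold change was -0.01 with an edgeR adjusted p of 0.947. Of the level per kilobase summed over these 3 SLC38 genes, SLC38A1 made up 35.3 ± 0.762% (SD, n = 3) in shCtrl and 26.2 ± 0.280% (SD, n = 3) in shAC007128.1 cells, SLC38A2 48.2 ± 0.437% and 52.3 ± 0.303%, and SLC38A5 16.5 ± 1.02% and 21.5 ± 0.223%. The sum itself was 145, 152 and 144 CPM per kilobase in shCtrl samples and 105, 107 and 124 in shAC007128.1 samples. Such shares depend on the length used. With the coding length, SLC38A1 stood above SLC38A2 in shCtrl cells (344 against 303 CPM per kilobase). In shAC007128.1 cells it stood below SLC38A2 (195 against 252).

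SLC6A9 (GlyT1; ENSG00000196517, chromosome 1, 43991500 to 44031467, minus strand) imports glycine with sodium and chloride. It had 41.6, 42.6 and 39.7 CPM in shCtrl replicates 1, 2 and 3, and 16.5, 13.0 and 12 CPM in shAC007128.1 replicates 1, 2 and 3. All shAC007128.1 samples were low, and the log2 fold change was -1.58 (standard error 0.14). SLC43A1 (LAT3; ENSG00000149150, chromosome 11, 57484534 to 57515780, minus strand), a carrier of branched-chain amino acids, was counted 22, 32 and 9 times in shCtrl and 9, 0 and 0 times in shAC007128.1 replicates 1, 2 and 3. These counts are low in both groups, and shAC007128.1 replicate 1 overlapped shCtrl replicate 3. It entered the fit under 5 of the alternatives and met the limits for a call in 1 of them, without shAC007128.1 replicate 1.

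Some of the 10 genes, among them SLC7A11, SLC6A9 and SLC7A5, have exons that lie opposite exons of other genes, and whether the counting used strand is not stated, so their counts are uncertain to the extent of the RNA of those genes. SLC7A11 shares 865 bases with SLC7A11-AS1, counted at 2.62, 2.32 and 2.58 CPM in shCtrl and 0.249, 0.801 and 0.774 CPM in shAC007128.1 replicates 1, 2 and 3. SLC6A9 shares 413 bases with CCDC24, at 15.7, 14.0 and 14.7 CPM in shCtrl and 13.2, 12.6 and 5.28 CPM in shAC007128.1 replicates 1, 2 and 3. SLC7A5 shares 271 bases with ENSG00000260466, at no more than 0.298 CPM in any sample. Of these 3, the partner comes near the transporter's own level only for SLC6A9.

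Samples of the shAC007128.1 group did not keep one order across the transporters. Replicate 3 was the lowest of the group for SLC3A2, SLC7A5, SLC7A1, SLC1A4, SLC1A5 and SLC6A9, and the highest for SLC7A11, SLC38A1 and SLC38A2. In shCtrl samples replicate 2 was the highest for SLC3A2, SLC7A11, SLC7A1, SLC38A1, SLC38A2 and SLC6A9.

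Levels of different genes were compared per kilobase of merged exons. SLC7A5 was the highest of the 10 genes in both groups, at 712 ± 15.2 CPM per kilobase (SD, n = 3) in shCtrl and 200 ± 12.1 (SD, n = 3) in shAC007128.1 cells. In shCtrl cells SLC1A5 (154 ± 16.9), SLC3A2 (112 ± 2.93), SLC38A2 (70.7 ± 1.59), SLC7A1 (66.9 ± 1.12), SLC38A1 (51.8 ± 0.661), SLC7A11 (23.5 ± 0.967), SLC1A4 (17.1 ± 0.187) and SLC6A9 (7.87 ± 0.275) followed, and SLC43A1 (0.0786 ± 0.0380) was last. No neighbours in this order overlapped over the 3 samples. In shAC007128.1 cells the order after SLC7A5 was SLC1A5 (89.8 ± 8.89), SLC38A2 (58.7 ± 5.30), SLC7A1 (34.8 ± 1.22), SLC3A2 (31.2 ± 4.99), SLC38A1 (29.3 ± 2.80), SLC1A4 (4.48 ± 0.0518), SLC7A11 (3.21 ± 0.499), SLC6A9 (2.63 ± 0.447) and SLC43A1 (0.0151 ± 0.0262). There SLC7A1 overlapped SLC3A2, SLC3A2 overlapped SLC38A1, and SLC7A11 overlapped SLC6A9. SLC7A5 also came first and SLC43A1 last with the longest transcript or the coding length, while the places between them shifted, and SLC3A2 then came before SLC1A5 in shCtrl cells.

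Together with 35 other carriers of the same or related families, the 10 genes summed to 1301, 1275 and 1243 CPM per kilobase in shCtrl replicates 1, 2 and 3 and to 512, 515 and 491 in shAC007128.1 replicates 1, 2 and 3. The 35 were taken as plasma membrane carriers, but where their proteins lie in the cell was not tested. The 10 genes alone gave 1246, 1218 and 1187 in shCtrl and 460, 464 and 437 in shAC007128.1 samples, where the mean was 37.3% of that of shCtrl. The other 35 gave 55.5, 56.9 and 55.6 in shCtrl and 52.1, 51.2 and 53.4 in shAC007128.1 samples. The summed level was thus lower in each shAC007128.1 sample, and most of the step was SLC7A5, the share of which was 55.5, 56.5 and 55.9% in shCtrl and 40.7, 39.8 and 37.9% in shAC007128.1 samples. The share of SLC38A2 was 5.55 ± 0.185% (SD, n = 3) in shCtrl and 11.6 ± 1.37% (SD, n = 3) in shAC007128.1 cells, and that of SLC1A5 12.1 ± 1.14% and 17.7 ± 1.46%.

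**Figure D3:**
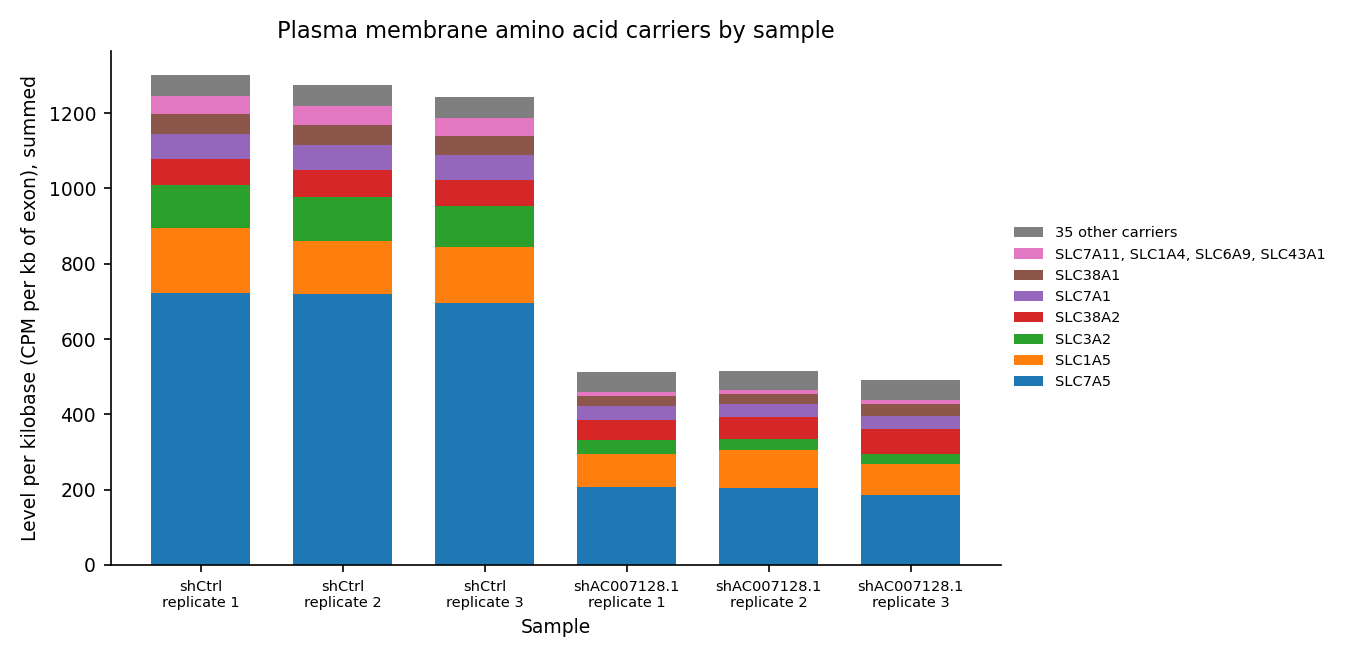
Stacked levels per kilobase (CPM per kilobase of merged exons) of plasma membrane amino acid carriers in each of the 6 samples, by gene, with 4 low genes summed and the 35 other carriers summed. The bars reach 1243 to 1301 in shCtrl and 491 to 515 in shAC007128.1 samples, and SLC7A5 is the largest piece of each.

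The rest of the families is what remained after the 10 genes had been chosen. Of the 35 other carriers 12 were tested and 0 were called by edgeR's quasi-likelihood test, by DESeq2 or by limma-voom, while 5 had an unadjusted p under 0.05 and 3 an adjusted p of at most 0.05 with edgeR. Of all 19254 genes tested, edgeR called 3018, DESeq2 3241 and limma-voom 3128, and with edgeR 9463 had an unadjusted p under 0.05 and 7861 an adjusted p of at most 0.05. The log2 fold change was below 0 for 7 of the 12 and above 0 for 5 (SLC3A1, SLC6A7, SLC7A6, SLC36A4 and SLC38A6), and their median was -0.05, beside -0.02 for all genes tested. This balance depends on single samples, since 15 carriers passed the filter when replicate 2 or replicate 3 of shCtrl, or replicate 2 of shAC007128.1, was left out. Of these 15, 6, 7 and 5 were then below 0, and the median was 0.21 each time. SLC38A10 was at 86.5 ± 5.72 CPM (SD, n = 3) in shCtrl and 54.9 ± 2.91 (SD, n = 3) in shAC007128.1 cells, a log2 fold change of -0.66 with an edgeR adjusted p of 0.000972, which missed the limit on fold change. The others at an adjusted p of at most 0.05, named after their values were seen, were SLC36A4 (log2 fold change 0.69, edgeR adjusted p = 0.0260) and SLC38A6 (0.44, edgeR adjusted p = 0.0463), and at an unadjusted p under 0.05 also SLC7A6 and SLC43A2. SLC6A6, the taurine transporter, was at 93.1 ± 2.21 and 87.3 ± 6.70 CPM (SD, n = 3), and SLC1A3, a glutamate transporter, at 25.9 ± 6.89 and 22.6 ± 6.90 CPM (SD, n = 3), and the groups overlapped for both. No count of the 23 carriers that were not tested was above 24 in any sample, and 7 of them had 0 counts in all samples.

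**Figure D4:**
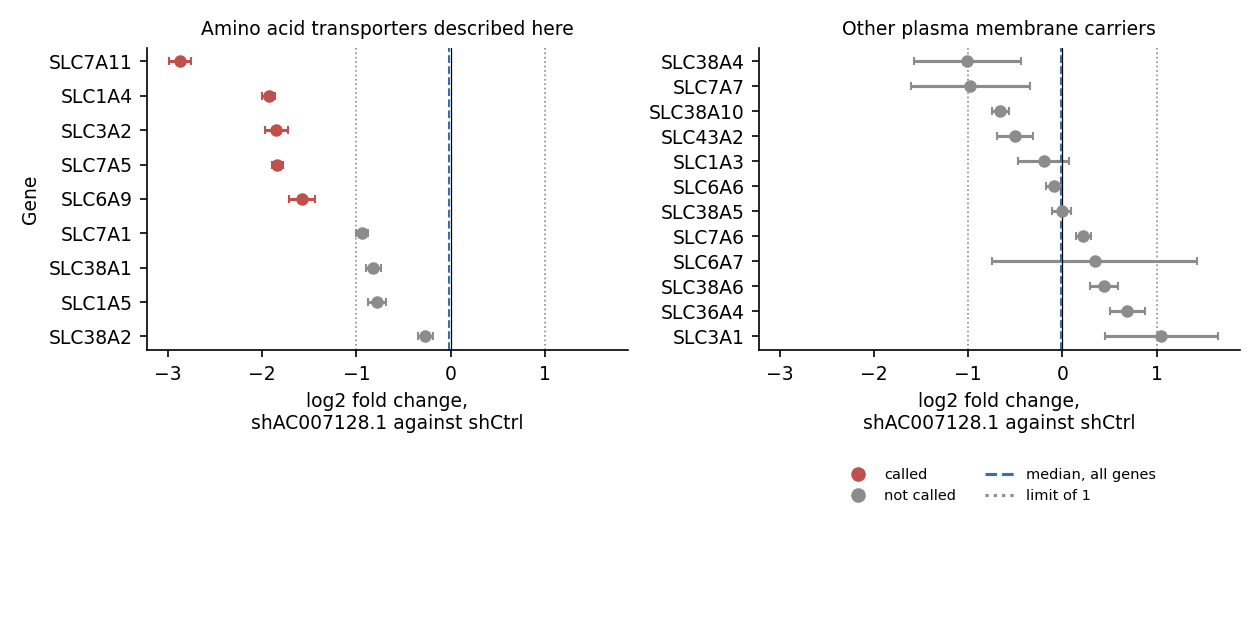
Log2 fold change of shAC007128.1 against shCtrl (points) with its standard error (bars) for the 9 tested genes of the 10 transporters (left) and the 12 tested genes of the other carriers (right), red where called. The dashed line is the median of all genes tested, -0.02, and the dotted lines are the limit of 1. The genes on the left were chosen on this contrast and range from -2.87 to -0.27, and those on the right range from -1.01 to 1.05.

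Carriers inside the cell and other related genes were counted in the same fit, in lists that were also chosen with results of this contrast known. Of all genes tested, 10.1% were called lower and 5.57% higher. Of the 6 lysosomal carriers tested, 0 were called lower and 1 higher, with a median log2 fold change of 0.02, beside -0.02 for all genes. The one called was SLC36A1 (PAT1), which exports small amino acids from lysosomes, at 14.7 ± 1.36 CPM (SD, n = 3) in shCtrl and 31.6 ± 1.40 (SD, n = 3) in shAC007128.1 cells, a log2 fold change of 1.10 (edgeR adjusted p = 0.000269). MFSD12 and SLC38A9, with the highest mean CPM of this list over all samples, had -0.34 and -0.55. Both missed the limit on fold change (edgeR adjusted p = 0.0204 and 0.0112). Of the 10 mitochondrial carriers tested, 0 were called lower and 1 higher, with a median of 0.45. SFXN1, which carries serine into mitochondria, rose from 147 ± 3.31 to 306 ± 33.2 CPM (SD, n = 3), a log2 fold change of 1.05 (edgeR adjusted p = 0.000150), but it was under the limit on fold change with library size as the only scaling (0.98) and without shAC007128.1 replicate 3 (0.95). SLC25A22 had 0.70 without overlap (edgeR adjusted p = 0.000748) and missed the limit on fold change, and SFXN3 had 0.06 and was not called.

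In the glutathione list, which SLC7A11 feeds with cysteine, 2 of 8 genes were called lower and 0 higher, with a median of -0.59. The shares over all genes tested were 10.1% lower and 5.57% higher. GCLC, the catalytic subunit of the first enzyme of glutathione synthesis, fell from 313 ± 8.18 to 98.0 ± 1.91 CPM (SD, n = 3), a log2 fold change of -1.68 (edgeR adjusted p = 1.60e-05). CHAC1, which degrades glutathione, fell from 34.7 ± 1.36 to 4.52 ± 1.22 CPM (SD, n = 3), a log2 fold change of -2.94 (edgeR adjusted p = 6.58e-05). The reductase gene TXNRD1 was at 476 ± 7.78 and 306 ± 3.68 CPM (SD, n = 3), without overlap, and its log2 fold change of -0.64 (edgeR adjusted p = 0.000157) missed the limit on fold change. GSR was at 205 ± 4.38 and 225 ± 13.1 CPM (SD, n = 3) and was not called. Neither was GCLM, named after its values were seen, with a log2 fold change of -0.05 (edgeR adjusted p = 0.652).

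Leucine and arginine taken up by SLC7A5 and SLC7A1 are sensed by proteins that control mTORC1. Of 35 such genes tested, 1 was called lower and 4 higher, with a median log2 fold change of 0.11. The shares over all genes tested were 10.1% lower and 5.57% higher. SESN2, a leucine sensor, fell from 130 ± 3.34 to 28.9 ± 3.26 CPM (SD, n = 3), a log2 fold change of -2.17 (edgeR adjusted p = 2.37e-05). CASTOR2, of a family of arginine sensors, rose from 24.9 ± 2.24 to 97.4 ± 9.70 CPM (SD, n = 3), although near-identical copies in the genome make its count uncertain. RRAGC and FNIP2 rose with log2 fold changes of 1.18 and 1.40, and so did SESN3 with 1.44, a gene named after its values were seen. MTOR itself was at 87.5 ± 2.41 and 112 ± 3.97 CPM (SD, n = 3), and its log2 fold change of 0.36 (edgeR adjusted p = 0.00560) missed the limit on fold change. So did that of RHEB (0.33, edgeR adjusted p = 0.0248), and TSC2 (-0.05) was not called.

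Of 18 genes of the amino acid and oxidative stress responses, which comprise kinases, transcription factors and regulators of either, 8 were called lower and 1 higher, with a median of -0.63. The shares over all genes tested were 10.1% lower and 5.57% higher. CEBPB, a partner of ATF4 on DNA, fell from 375 ± 7.28 to 85.7 ± 11.8 CPM (SD, n = 3), a log2 fold change of -2.13 (edgeR adjusted p = 2.96e-05). TRIB3, CEBPG, JDP2 and PPP1R15A fell with log2 fold changes of -2.33, -1.53, -1.60 and -1.81. ATF4 was at 457, 440 and 427 CPM in shCtrl and 301, 279 and 248 CPM in shAC007128.1 replicates 1, 2 and 3, without overlap, and its log2 fold change of -0.67 (edgeR adjusted p = 0.000749) missed the limit on fold change. EIF2AK1 had -0.15 and was not called. ATF5, named after its values were seen, was the gene called higher, with 1.47. KEAP1, also named after its values were seen, was called higher too without shCtrl replicate 3 (1.01, edgeR adjusted p = 0.0171). Of 6 genes for proteins that stabilise, place or ubiquitylate the transporters, 0 were called lower and 1 higher, the ubiquitin ligase gene NEDD4 with a log2 fold change of 1.45 (edgeR adjusted p = 0.000126), and the median was 0.27. CD44, which stabilises SLC7A11 at the membrane, was at 368 ± 32.4 and 427 ± 53.0 CPM (SD, n = 3), with overlapping groups. LAPTM4B had 0.49 without overlap (edgeR adjusted p = 0.0125) and missed the limit on fold change. Neither CD44 nor NEDD4L (-0.01) was called.

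**Figure D5:**
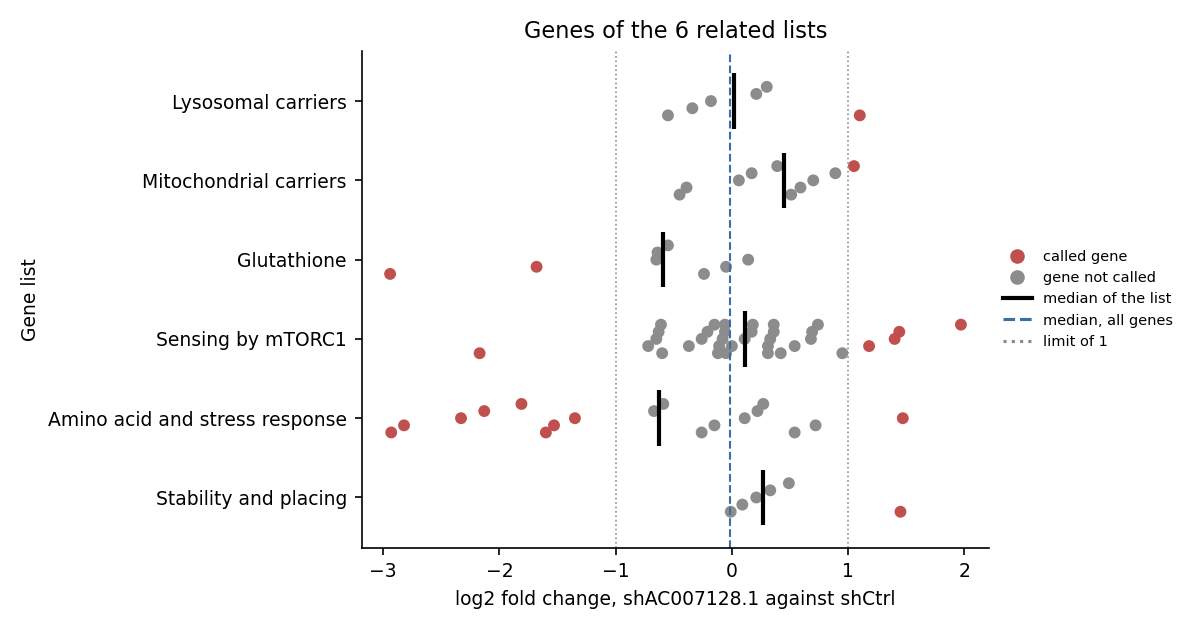
Log2 fold change of shAC007128.1 against shCtrl for each tested gene (points, red where called) of 6 related lists, spread in height for sight only, with black bars for the median of each list. The dashed line is the median of all genes tested, -0.02, and the dotted lines are the limit of 1. List medians run from -0.63 for the amino acid and stress response genes to 0.45 for the mitochondrial carriers.

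Several of the 10 genes are known targets of ATF4, which binds a composite element with CEBP proteins, so their promoters were searched for the core letters of that element. RefSeq windows on GRCh38.p14, from 250 bases before to 50 bases after each annotated start, were found for 9 of the 10 genes, without SLC7A11, and comprised 16 windows. TGATGNAA was searched on both strands, TTNCATCA being its reverse complement. It was present in 5 of the 16 windows, 1 each of SLC3A2, SLC7A1, SLC1A4, SLC1A5 and SLC38A1, and in 3.62% of the 35116 windows of all genes. The match of SLC3A2 ran from base 38 to base 45 and that of SLC7A1 from base 8 to base 15, both after the start. In SLC1A5 it ran from base -97 to base -90. Except for SLC7A1, the matched windows belong to annotated starts inside the gene. Of the 16 windows, 9 hold exonic bases of their own gene before the start. The stricter TGATGCAA was present in 2 of the 16 windows, 1 each of SLC1A4 and SLC1A5, and in 0.866% of all windows. A match is a description of these letters and not a site in use.

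The sequence before the start is shown for 3 genes, each with the strand of the gene and matched letters in capitals: SLC1A4, with a match at the start itself, SLC38A1, with a match there too but a smaller difference between groups, and SLC7A5, with no match. For SLC1A4 the window is chr2:64989149-64989398 (plus strand), where the match TTGCATCA runs from base -7 to base 1 counted from the start, so that its last letter is the first base transcribed. For SLC38A1 it is chr12:46266517-46266766 (minus strand), where TGATGAAA runs from base -4 to base 4. For SLC7A5 it is chr16:87869508-87869757 (minus strand).
SLC1A4: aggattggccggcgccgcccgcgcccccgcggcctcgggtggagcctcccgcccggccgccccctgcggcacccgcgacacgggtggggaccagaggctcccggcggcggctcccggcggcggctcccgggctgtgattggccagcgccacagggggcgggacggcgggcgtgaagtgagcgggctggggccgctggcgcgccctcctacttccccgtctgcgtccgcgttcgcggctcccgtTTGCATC
SLC38A1: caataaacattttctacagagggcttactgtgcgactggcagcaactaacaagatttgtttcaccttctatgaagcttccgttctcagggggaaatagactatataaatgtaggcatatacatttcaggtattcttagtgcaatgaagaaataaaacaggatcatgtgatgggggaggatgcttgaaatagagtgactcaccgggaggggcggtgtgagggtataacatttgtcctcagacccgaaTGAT
SLC7A5: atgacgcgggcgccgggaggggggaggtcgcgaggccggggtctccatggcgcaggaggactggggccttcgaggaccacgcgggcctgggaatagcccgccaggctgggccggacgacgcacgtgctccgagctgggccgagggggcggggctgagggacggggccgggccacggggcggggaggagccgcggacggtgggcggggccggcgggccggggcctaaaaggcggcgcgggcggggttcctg

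The SLC1A4 and SLC7A5 windows are rich in G and C, each at 79.6%, with 38 and 34 CpG pairs, whereas the SLC38A1 window has 42.4% and 5 pairs. Over all windows the medians were 58.0% and 11 pairs, and over the 16 windows of the transporters 63.4% and 19 pairs. SLC1A4 and SLC38A1 both hold TGATGNAA at an annotated start, and stood at 26.3 and 56.6% of their shCtrl levels, while SLC7A5, without it in this window, stood at 28.0%. Of the other genes with a window, SLC3A2, SLC7A1 and SLC1A5 also hold it, and stood at 27.8, 52.0 and 58.1%. SLC38A2 and SLC6A9 do not, and stood at 83.0 and 33.4%, and SLC43A1, also without it, did not pass the filter. Whether the letters go with the size of the difference was not tested.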

How the data were processed

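RNA sequencing counts of 6 KYSE150 samples, 3 shCtrl and 3 shAC007128.1, were analysed. The authors filtered their reads, mapped them with TopHat to hg38 and obtained FPKM with Cufflinks, and the submitters' processing notes list CASAVA 1.8, TopHat2 2.0.6, mm10 and GRCh38. What the authors deposited is a table of estimated counts by Ensembl identifier, not normalized and already in whole numbers. The counting program, annotation release and use of strand are not given in the sources used here. In every sample more genes had a count of 4 than a count of 3 or of 5. All 6 columns were mapped by titles and descriptions, with 0 columns unmapped. Treatment text names the same hairpin for all samples and was not used for grouping.

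Of 67140 identifiers, 60357 (89.9%) were found in GENCODE v44, which gave symbols, positions and exon lengths. After filterByExpr 19254 genes were scaled by TMM (factors 0.967 to 1.042) and tested with edgeR 4.0.16 (glmQLFit, glmQLFTest) in R 4.3.3, with Benjamini-Hochberg adjustment over all genes. The standard error was taken as the size of the log2 fold change over the square root of F. Levels per kilobase are CPM divided by the length of merged exons. The steps were tested on simulated counts. Tables and figures were made in Python 3.11.15 with pandas 2.3.3, scipy 1.17.1 and matplotlib 3.10.9. Promoter windows are from RefSeq and were checked against hg38.

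The 10 transporters and all lists were chosen with earlier results of these data known. Named are the 10 genes, AC007128.1, of the other carriers every called gene (at most 12) and the 5 with the highest mean CPM, of each related list the 4 called genes with the smallest adjusted p and the 3 with the highest mean CPM, and copies and markers. Alternatives were DESeq2 1.42.0, limma-voom (limma 3.58.1), DESeq2 size factors, scaling by library size only, leaving out the filter, a filter of 10 counts in each sample, replicate number as a block, each sample left out, counts divided by 4, dropping the 20 genes with the most counts, no fold change limit, other gene lengths and other motif letters. Counts thinned to the smallest total were added after seeing the data. Authors' FPKM values were not used here.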

Additional observations from a re-analysis of the deposited data

How the results depend on the processing

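The 9 tested transporters had a negative log2 fold change in every alternative in which they were tested. Of 143 such values 142 stayed on their side of the limits, the exception being SLC7A1 with library size only. The number of the 10 genes called was 5 with DESeq2, limma-voom, DESeq2 size factors, no filter, a filter of 10 counts in each sample, counts divided by 4 and counts thinned to the smallest total (an alternative chosen after seeing the data), 6 with library size only, and 4 without the 20 genes with the most counts, where SLC7A5 is not tested. It was 5 or 6 with a sample left out, 6 without shAC007128.1 replicate 1, where SLC43A1 was called with both remaining shAC007128.1 samples at 0. SLC43A1 was also tested with no filter and when replicate 3 of shCtrl, or replicate 2 or 3 of shAC007128.1, was left out, and was not called there. Library size only moved the median of all genes from -0.02 to -0.10.

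With no limit on fold change, 7861 genes were called (4041 higher, 3820 lower) in place of 3018 (1073 higher, 1945 lower), 9 of the 10 transporters, all lower, 3 other carriers (2 higher, 1 lower) and 43 genes of the related lists (22 higher, 21 lower). A replicate block in the fit gave 2669 called genes, AC007128.1 at -0.82 (edgeR adjusted p 0.363), and again 5 transporters, 0 other carriers and 19 related genes. Deviations of same-numbered samples correlated at 0.0306, -0.0254 and -0.0299, so the numbers were not taken as pairs. The median of the other carriers was -0.05 and turned to 0.06 with no filter, 0.07 without shAC007128.1 replicate 1, and 0.21 when replicate 2 or 3 of shCtrl, or replicate 2 of shAC007128.1, was left out. With a sample left out, 0 to 1 other carriers were called, the one being SLC1A2, higher, without shCtrl replicate 2. In those fits 18 to 21 related genes were called. Among them CASTOR1 was called higher without shCtrl replicate 3 (1.25, edgeR adjusted p 0.0308) and without shAC007128.1 replicate 1 (1.15, edgeR adjusted p 0.0329). The log2 fold change of AC007128.1 ran from -1.29 to -0.51 with a sample left out (edgeR adjusted p 0.0959 to 0.562).

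The ratio of SLC7A5 to SLC3A2 in shCtrl and shAC007128.1 cells was 2.95 and 3.01 with the longest transcript and 6.17 and 6.29 with the coding length. That of SLC7A11 was 0.0932 and 0.0473, and 0.417 and 0.212. These shifts come from the lengths alone. TGATGCAA was found in windows of 2 transporters in place of 5, and TGATG in those of 6, beside 1.08% and 37.7% of all genes with a window and 4.46% for TGATGNAA.

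Among the markers, the call of PDGFRB was lost with limma-voom (adjusted p 0.0539), no filter (edgeR adjusted p 0.0792), a replicate block (0.0778), thinned counts (0.0523) and 5 of the 6 samples left out. VWF was called lower with DESeq2, limma-voom, a replicate block (edgeR adjusted p 0.0445) and without shAC007128.1 replicate 2 (0.00721).

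Some values near 0, none of them called, changed sign. With library size only SFXN3 was at -0.01 and SLC7A5P2 at -0.07. SLC7A5P2 was at -0.03 without the filter, -0.02 under a filter of 10 counts in each sample and 0.00 with DESeq2, DESeq2 size factors and counts divided by 4. The cause was not tested. With a sample left out, log2 fold changes ran from -0.09 to 0.06 for SLC38A5, -0.45 to 0.01 for SLC1A3, -0.14 to 0.02 for TSC2, -0.05 to 0.01 for NEDD4L, -0.27 to 0.54 for SLC7A5P2 and -0.44 to 0.09 for TP63.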

Other observations

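SLC1A2, a glutamate transporter of the other carriers named after its values were seen, was counted 0, 5 and 0 times in shCtrl replicates 1, 2 and 3 and 12, 8 and 21 times in shAC007128.1 replicates 1, 2 and 3. The groups did not overlap, but the gene did not pass the filter on low counts. With all samples and no filter it was tested and not called. Without shCtrl replicate 2 it was called higher (edgeR adjusted p = 0.0242), with both remaining shCtrl samples at 0, and it was not called in the other 3 fits with a sample left out in which it was tested.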
